A study of Mus musculus with 40 samples.

Results

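The livers described here came from 4 mice aged 12 months that received an ATR inhibitor (ATRi) once, 24 h after partial hepatectomy (PH), the surgical removal of part of the liver, and were sampled 72 h after PH. They were set against livers of the same age at 0 h, without inhibitor, which the authors deposited as 1 mean over 8 mice. The mouse numbers of the 4 ATRi livers (M545, M546, M547 and M548) are also among the 8 numbers in that 0 h mean. All 11119 genes of the tables entered the comparison, out of 11119 in the series, which has 40 samples in 9 groups. Other groups of 12-month mice are cited beside it as deposited means: ATRi at 48 h (3 mice, inhibitor at 24 h), untreated at 48 h (3 mice) and untreated at 72 h (4 mice). The mouse numbers of the 4 untreated 72 h livers are also among the 8 numbers in the 0 h mean. For 3-month mice, the mean of 4 ATRi livers at 72 h and the mean of 7 livers at 0 h are cited once. Strain, sex, the inhibitor's name and the unit of its dose are not given in the labels. Polyadenylated RNA was sequenced, and the tissue was labelled as liver with hepatocytes as the cell type.

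PH drives hepatocytes, which are otherwise at rest, through DNA replication and mitosis until the liver has regained its mass. ATR is the kinase that answers to stalled replication forks and exposed single-stranded DNA: through its effector CHK1 it restrains origin firing, protects forks and holds back entry into mitosis. Inhibitors of ATR remove that restraint. The series' title concerns replication stress with age, and this comparison asks which genes in the older liver stood above or below their starting level on the third day, after ATR had been inhibited on the second.

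Values are log2 levels of a quantity that the authors' tables call sigma. They hold no counts, so the depth behind a value is unknown and no counting interval can be given. A difference is the mean of the 4 livers minus the 0 h mean, in log2 units, with its standard error (SE, after the ± sign) from limma, and a gene passed the test at a Benjamini-Hochberg adjusted p under 0.05 over all 11119 genes. The spread of the 4 livers carries the whole error: the 0 h mean entered as 1 observation with weight 8, and the shared mice were treated as independent. The 4 values given for a gene follow the order M545, M546, M547 and M548. Single genes were not ranked against each other by level, since abundant liver transcripts can be low in these tables: Ahsg, a major plasma protein gene, stood at 2.97 at 0 h. Sums of marker levels, given below, count the genes with the highest levels most. They were compared only between samples. Albumin (Alb) was at 15.39, 16.04, 15.49 and 15.07 in M545, M546, M547 and M548, against 15.23 at 0 h, so all samples carried the defining hepatocyte transcript at a high level. Markers of other liver cells were measured as well, such as Csf1r of macrophages at 6.29, 5.98, 6.06 and 5.89, against 5.32 at 0 h. In bulk tissue, fewer cells of a type and less RNA per cell cannot be told apart.

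Many genes passed the test in each direction. In ATRi livers 2568 genes (23.1% of those tested) were higher than at 0 h and 2822 (25.4%) were lower. By 1 log2 unit or more, 1160 (10.4%) were higher and 828 (7.45%) were lower. All 4 livers lay above the 0 h mean for 3505 genes (31.5%) and below it for 4077 (36.7%). Counts of gene groups below are to be read against these shares. Between the deposited means, 1452 genes (13.1%) were higher by 1 or more in ATRi livers than at 0 h and 566 (5.09%) were lower. Between the untreated 72 h mean and the same 0 h mean, 325 (2.92%) were higher and 112 (1.01%) lower by that size. These last 2 comparisons have no test and share the 0 h mean. When the 0 h mean was given the weight of 1 liver, 196 genes passed as higher and 172 as lower. With the livers shifted to their deposited mean, 1428 passed as higher by 1 or more, 72.0% of the calls of that size, against 58.4% without the shift.

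The 4 livers did not respond to the same extent. Livers M545, M547 and M548 had 1519, 1356 and 1395 genes above the 0 h mean by 1 or more, whereas M546 had 720. The genes below it by 1 or more numbered 1126, 1011 and 1122 in M545, M547 and M548, and were fewest in M546. M546 was thus nearest to the 0 h level in both directions. Across genes, the differences correlated between livers with Pearson's r of 0.803 (M545 and M546) to 0.918 (M547 and M548). These are descriptions, since all 4 differences share the 0 h mean and genes are not independent replicates.

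Above 10000 bp, differences followed gene length. Of the 417 genes longer than 200000 bp, 41.5% rose by 1 or more and 0 fell by that size, while among the 2310 genes of 10000 to 20000 bp 4.37% rose and 12.9% fell by that size. A fall of 1 was out of reach for many of the longest genes. Their median 0 h level was 0.97, and 35 of the 417 were at 2 or more. The lowest levels in the 4 livers ran from 0.27 to 0.55. In the class above 200000 bp, 352 genes (84.4%) lay above the 0 h mean in all 4 livers. The median difference was -0.16 for the 627 genes up to 5000 bp, -0.25 for 5000 to 10000 bp, -0.26 for 10000 to 20000 bp, -0.09 for 20000 to 50000 bp, 0.21 for 50000 to 100000 bp, 0.48 for 100000 to 200000 bp and 0.80 above 200000 bp. With no limit on level, the medians thus increased with length only from 10000 to 20000 bp upward. Each liver showed the increase over these 5 classes: above 200000 bp the medians were 0.92, 0.52, 0.90 and 0.83 in M545, M546, M547 and M548, and at 10000 to 20000 bp they were -0.28, -0.21, -0.27 and -0.31. M546 was the lowest liver for long genes and the nearest to 0 for genes of 10000 to 20000 bp.

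Long genes were also above 0 h in the untreated 72 h mean, by a smaller median of 0.22 in the longest class. That class stood at -0.06 in the ATRi 48 h mean and at -0.05 in the untreated 48 h mean. The mean of 3-month ATRi livers at 72 h, set against its own 0 h mean, had a median of -0.03 for these genes. Long genes had low starting levels (median 0.97 at 0 h above 200000 bp, against 3.76 at 10000 to 20000 bp). Among genes at a 0 h level of 2 or more, the medians were 0.59 for 290 genes of 100000 to 200000 bp, 0.45 for 35 genes above 200000 bp and -0.42 for 1680 genes of 10000 to 20000 bp. In that set they were lower still for shorter genes, -0.61 for 283 genes up to 5000 bp and -0.50 for 700 genes of 5000 to 10000 bp. With this limit the medians thus increased from the shortest class up to 100000 to 200000 bp. That limit was set on the same 0 h mean that is subtracted, so the selection itself can shift these medians. The length classes and the level limit were chosen after seeing the data, the medians have no test, and the cause of the pattern was not tested.

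**Figure D1:**
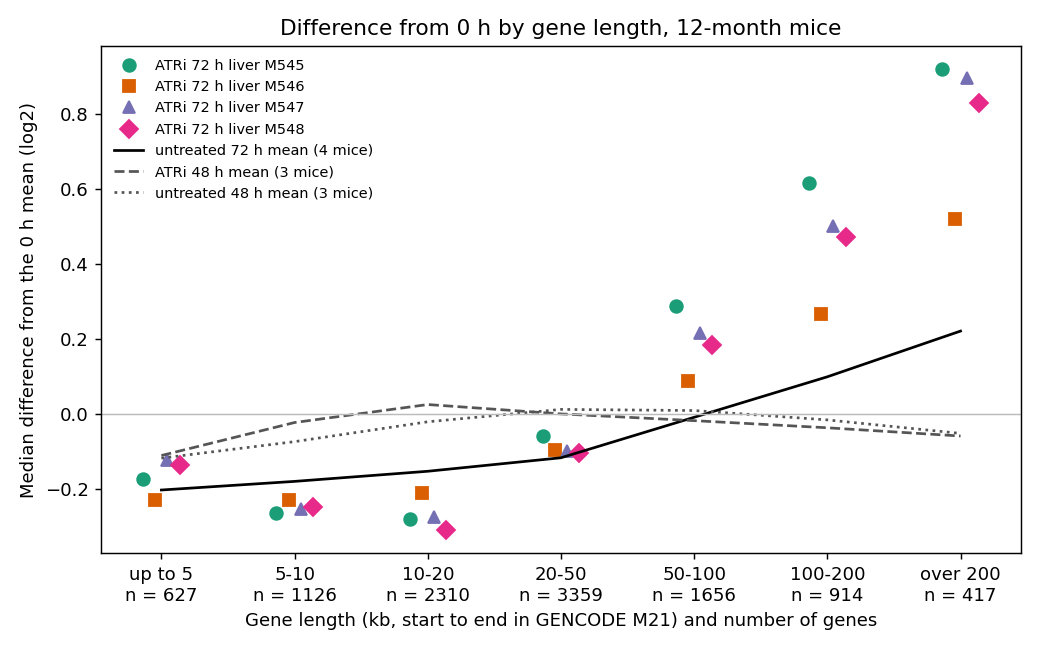
Median log2 difference from the 0 h mean (y axis) for genes in 7 length classes (x axis, kb, with the number of genes). Symbols stand for the 4 single ATRi livers at 72 h, lines for deposited means of untreated 72 h, ATRi 48 h and untreated 48 h mice; the ATRi livers reach 0.52 to 0.92 in the longest class, where the untreated 72 h mean is at 0.22 and both 48 h means are slightly below 0.

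The genes that rose most included receptors, signalling proteins and transcription factors, most of them long. Among the 15 largest differences, 10 genes exceeded 100000 bp, and the median length was 181926 bp, against 26702 bp over the 10409 genes with an annotated length. Their 0 h levels were low, between 0.81 and 3.58. All 15 stayed past the test when differences were centred within length classes.

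Pid1 (chromosome 1, 84036296 to 84364180, GRCm38), which codes for a phosphotyrosine-interaction protein linked to insulin signalling, had levels of 6.78, 5.06, 6.50 and 6.86 in M545, M546, M547 and M548, against 0.93 at 0 h. It rose by 5.37 ± 0.36, adjusted p = 0.000581, the largest difference past the test, and every liver was far above 0 h. Egfr (chromosome 11, 16752203 to 16918158), the receptor for EGF and TGF-alpha that supports hepatocyte proliferation, was at 8.19, 7.50, 8.46 and 8.75, against 3.58 at 0 h. It rose by 4.64 ± 0.24, adjusted p = 0.000286, and its lowest liver was M546.

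M546 was also the lowest liver for the other leading genes named here. All 4 livers lay above the 0 h mean for each of them, as the rule for naming them required. Gfra1, a co-receptor for glial-derived neurotrophic factor, was at 6.48, 5.27, 6.40 and 6.57, against 1.62 at 0 h, and rose by 4.56. Il1r1, the interleukin-1 receptor, was at 7.80, 6.02, 7.54 and 8.21, against 3.31 at 0 h, and rose by 4.08. Mapkapk2, a kinase downstream of p38 that stabilises cytokine mRNAs, was at 6.12, 4.12, 6.35 and 7.10, against 1.43 at 0 h, and rose by 4.49. Several of these genes code for regulators of transcription. Zbtb16 rose by 4.48, Zbtb20, a hepatic repressor whose gene spans 766722 bp, by 4.23, and Arid5b by 4.13. Nos1ap (4.66), Mtss1 (4.39), Tacc2 (4.37), Tnfaip3 (4.35), Prr16 (4.11) and Ccdc152 (4.03) were also among the 15. Ccdc152 overlaps the gene of the abundant plasma selenoprotein P on the other strand. The sources used here do not say whether counting used strand, so its value is uncertain.

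The genes that fell most included metabolic enzymes and transporters of the mature hepatocyte. The 15 with the lowest differences spanned 2932 to 39681 bp, and none exceeded 100000 bp. Car3 (chromosome 3, 14863512 to 14872523), carbonic anhydrase III, was at 3.09, 10.24, 8.56 and 6.40 in M545, M546, M547 and M548, against 11.40 at 0 h. It fell with a difference of -4.33 ± 1.27, adjusted p = 0.029, and the livers were spread over more than 7 units with M545 lowest. Without M547 (-4.82) or M548 (-4.10) it no longer passed. Between the deposited means Car3 differed by -2.57. Hsd3b5 (chromosome 3, 98618634 to 98630252), a steroid-metabolising enzyme typical of male mouse liver, was at 0.50, 1.34, 0.72 and 0.96, against 4.55 at 0 h, a difference of -3.67 ± 0.18, adjusted p = 0.000284. The M545 value is the lowest level in that liver's table, so the size of the fall is limited by that floor. Foxa1 (chromosome 12, 57540628 to 57546916), a pioneer factor that opens liver enhancers, was at 1.5, 1.62, 2.57 and 2.42, against 5.03 at 0 h, a difference of -3.0 ± 0.26, adjusted p = 0.000876. No liver came within 2 units of the 0 h mean.

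G6pc, the glucose-6-phosphatase that releases glucose from hepatocytes, was at 5.46, 8.12, 5.66 and 6.53, against 9.28 at 0 h, a difference of -2.84. Liver M546 kept the most and M545 the least. Further down the same order were Pklr, the liver pyruvate kinase (-2.50), Pnpla3, a lipid droplet protein (-2.65), Fn3k, which repairs glycated proteins (-2.60), and Arrdc3, an arrestin-like adaptor (-2.82). Sult2a8, a sulfotransferase acting on bile acids in mice (-3.69), and Slco1a1, an uptake transporter (-3.24), fell with M545 far below the others. The difference of Sult2a8 was -2.27 without M545, and it no longer passed without M547 (-4.15) or M548 (-4.04). Between the deposited means Sult2a8 differed by -2.48 and Slco1a1 by -2.22. Chrna4 (-3.56), Fam198a (-2.64) and Tmem30b (-2.50) fell as well. Clec2h was at 0.56, 0.56, 0.51 and 0.55, against 3.03 at 0 h, at or near each table's lowest value. Mup21 (-3.80) belongs to the major urinary protein family, whose near-identical copies make its value uncertain.

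**Figure D2:**
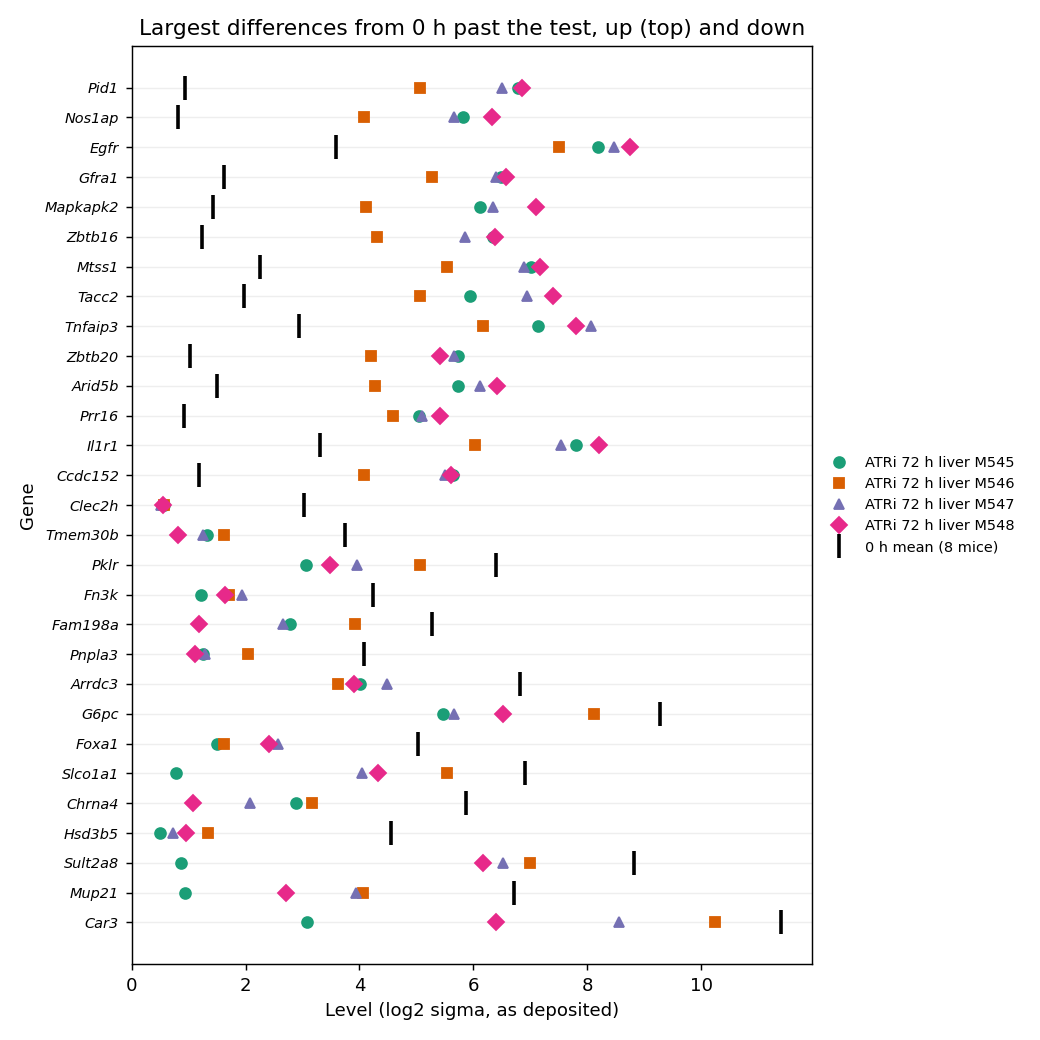
Levels (x axis, log2 sigma as deposited) of genes past the test, 14 of the 15 that rose most and the 15 that fell most. Each symbol is 1 ATRi liver at 72 h and the black bar is the 0 h mean of 8 mice; Pid1 at the top has livers between 5.06 and 6.86 with the bar at 0.93, and Car3 at the bottom has livers between 3.09 and 10.24 with the bar at 11.40.

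Mitotic genes were the most uniformly raised of the cell-cycle groups at 72 h. In the list of kinesins and spindle proteins, 20 of 20 measured genes rose and 0 fell, with a median difference of 1.69 against -0.04 over all genes. Of the mitotic entry kinases and cyclins, 16 of 18 rose and 0 fell (median 1.42). Of centromere and kinetochore genes, 15 of 19 rose and 0 fell (median 1.42), and of cytokinesis genes 10 of 12 rose and 0 fell (median 1.95). Condensin, cohesin and topoisomerase genes had 9 of 15 higher and 0 lower (median 0.94). The spindle checkpoint and anaphase-promoting complex had 7 of 12 higher and 1 lower (median 0.81). Every liver's median was positive for all 6 lists, and M545 was the lowest liver in 5 of them, the centromere list being the exception, where M548 was lowest.

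Promoters of the 4 genes with the largest differences within the 6 mitosis lists are shown because genes of this class are known to share a CHR element with a CCAAT box. Each runs 5′ to 3′ from 250 bases before to 50 bases after the RefSeq gene start (GRCm38.p6, minus strand for all 4), and capitals mark TTTGAA (CHR) and CCAAT, on either strand, so that CCAAT on the other strand reads ATTGG. No 2 capitalised motifs overlap.
Ccnb2 (chr9:70421505-70421804): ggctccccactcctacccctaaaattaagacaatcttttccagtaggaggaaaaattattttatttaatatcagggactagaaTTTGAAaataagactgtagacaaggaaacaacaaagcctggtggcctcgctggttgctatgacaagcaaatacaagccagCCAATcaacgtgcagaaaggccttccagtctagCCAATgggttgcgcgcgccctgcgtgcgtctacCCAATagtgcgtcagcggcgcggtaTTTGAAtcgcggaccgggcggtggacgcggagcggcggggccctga
Ckap2 (chr8:22185770-22186069): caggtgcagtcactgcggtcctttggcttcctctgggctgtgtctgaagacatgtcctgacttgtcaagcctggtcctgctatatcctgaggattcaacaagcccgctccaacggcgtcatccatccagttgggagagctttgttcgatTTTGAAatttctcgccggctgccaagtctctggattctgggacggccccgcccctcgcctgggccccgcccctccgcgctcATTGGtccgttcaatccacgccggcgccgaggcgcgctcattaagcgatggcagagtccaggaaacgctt
Cdk1 (chr10:69352863-69353162): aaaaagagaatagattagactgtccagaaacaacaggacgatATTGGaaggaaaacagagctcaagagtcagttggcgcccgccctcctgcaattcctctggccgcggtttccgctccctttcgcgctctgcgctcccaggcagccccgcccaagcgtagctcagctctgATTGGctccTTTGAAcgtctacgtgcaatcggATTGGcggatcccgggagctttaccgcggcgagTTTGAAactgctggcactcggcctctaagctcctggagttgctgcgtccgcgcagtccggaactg
Hmmr (chr11:40733388-40733687): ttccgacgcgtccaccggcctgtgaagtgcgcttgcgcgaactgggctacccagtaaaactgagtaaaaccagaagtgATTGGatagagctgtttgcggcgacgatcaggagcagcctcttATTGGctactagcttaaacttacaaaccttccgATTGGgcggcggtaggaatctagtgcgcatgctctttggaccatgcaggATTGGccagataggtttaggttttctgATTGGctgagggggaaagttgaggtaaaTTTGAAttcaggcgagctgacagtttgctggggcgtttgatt

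Of the 81 mitosis-list genes with a RefSeq promoter, 49 (60.5%) held TTTGAA or its reverse complement in this window, against 12.2% of the 8236 promoters of genes in the tables. CCAAT on either strand was in 63.0% of them, against 38.5%, and both motifs were in 46.9%, against 5.17%. A match is a description of the letters and not a site of binding.

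Ccnb2, cyclin B2, which activates CDK1 at mitotic entry, was at 5.54, 6.18, 5.98 and 4.86 in M545, M546, M547 and M548, against 1.96 at 0 h. It rose by 3.68 ± 0.27, adjusted p = 0.000633, with M548 lowest. Cdk1, the mitotic kinase itself, was at 4.43, 5.26, 5.31 and 4.62, against 1.52 at 0 h, and rose by 3.39 ± 0.23, adjusted p = 0.000581. Ckap2, a microtubule-associated protein of the spindle, was at 3.99, 4.83, 4.86 and 4.18, against 0.88 at 0 h, and rose by 3.59 ± 0.23, adjusted p = 0.000557. For all 3, every liver stood well above 0 h. Hmmr, a spindle-pole protein, was at 3.54, 4.67, 4.44 and 3.94, against 0.77 at 0 h, and rose by 3.38 ± 0.25, adjusted p = 0.000633. Plk1, the kinase that drives centrosome maturation and mitotic exit, was at 4.32, 5.21, 4.85 and 3.14, against 1.07 at 0 h, and rose by 3.32 ± 0.40, adjusted p = 0.00168. Liver M548 was again the lowest for Plk1, by more than 1 unit.

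The proliferation marker Mki67 was at 4.05, 4.51, 4.58 and 4.48, against 1.11 at 0 h, and rose by 3.29 ± 0.17, adjusted p = 0.000286. The 4 livers lay within 0.54 of each other. Birc5, survivin of the chromosomal passenger complex, was at 4.69, 5.66, 5.78 and 5.68, against 2.13 at 0 h, and rose by 3.32. Top2a, the topoisomerase that untangles sister chromatids, was at 3.46, 4.07, 4.10 and 4.08, against 1.18 at 0 h, and rose by 2.75. In both, M545 stood apart below the other 3. Ccnb1 was at 1.90, 2.76, 2.74 and 2.31, against 0.53 at 0 h, and rose by 1.90. Rises were also seen for Nek2 (2.96), Prc1 (2.99), Iqgap3 (2.92), Plk4 (2.39), Racgap1 (2.34), Cenpe (1.99), Incenp (1.92), Mad2l1 (1.75), Ncapd2 (1.77) and Bub1b (1.36). Knstrn, a kinetochore and spindle protein, rose by 3.27.

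DNA replication genes had mixed directions. Of the licensing and helicase genes, 6 of 18 rose and 4 fell (median 0.18), and of the fork polymerases and clamp genes, 3 of 18 rose and 5 fell (median -0.07). Nucleotide supply had 2 of 11 higher and 2 lower (median -0.004). G1/S cyclins and E2F factors had 5 of 14 higher and 2 lower (median 0.11), and chromatin assembly and DNA methylation had 6 of 12 higher and 2 lower (median 0.63). These shares are near the 23.1% and 25.4% of all genes for the first 3 lists.

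Mcm5, a subunit of the replicative helicase, was at 3.69, 3.94, 4.10 and 4.34, against 2.32 at 0 h, and rose by 1.70 ± 0.18, adjusted p = 0.00132. Rrm2, the regulated subunit of ribonucleotide reductase, was at 4.40, 5.53, 5.40 and 5.30, against 3.76 at 0 h, and rose by 1.39 ± 0.24, adjusted p = 0.00494. Both were above 0 h in all 4 livers. Mcm10, which helps to activate the helicase, was at 2.14, 3.33, 3.29 and 3.31, against 4.55 at 0 h, and fell with a difference of -1.54 ± 0.28, adjusted p = 0.00551. Liver M545 was lowest and the other 3 were nearly equal. Orc6 (-1.36), Rfc3 (-1.35), Pola2 (-1.16), Tipin (-0.77) and Pcna (-0.41), which act in origin recognition, clamp loading, priming, fork protection and as the sliding clamp, were lower. Mcm2 was at 3.43, 2.82, 3.54 and 3.38, against 2.73 at 0 h, a difference of 0.56 that missed the threshold (adjusted p = 0.0523) and passed without M546 (0.72). Cyclin D1 (Ccnd1) was at 2.0, 1.86, 1.90 and 1.70, against 1.37 at 0 h, and rose by 0.49. Ccnd1 no longer passed without M547 (0.48), nor Pcna without M545 (-0.39), M547 (-0.34) or M548 (-0.43).

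The other 12-month means place these values in time. At 48 h the licensing list had a median difference from 0 h of 1.76 in ATRi livers and 1.38 in untreated livers. At 72 h the deposited means gave 0.11 in ATRi livers and 0.57 in untreated livers. Kinesins and spindle genes stood at 2.97 in the ATRi mean and 2.87 in the untreated mean at 48 h, and at 1.80 in the ATRi mean and 1.98 in the untreated mean at 72 h. Both lists had lower medians at 72 h than at 48 h, with and without ATRi. The differences share the 0 h mean and have no replicate test.

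**Figure D3:**
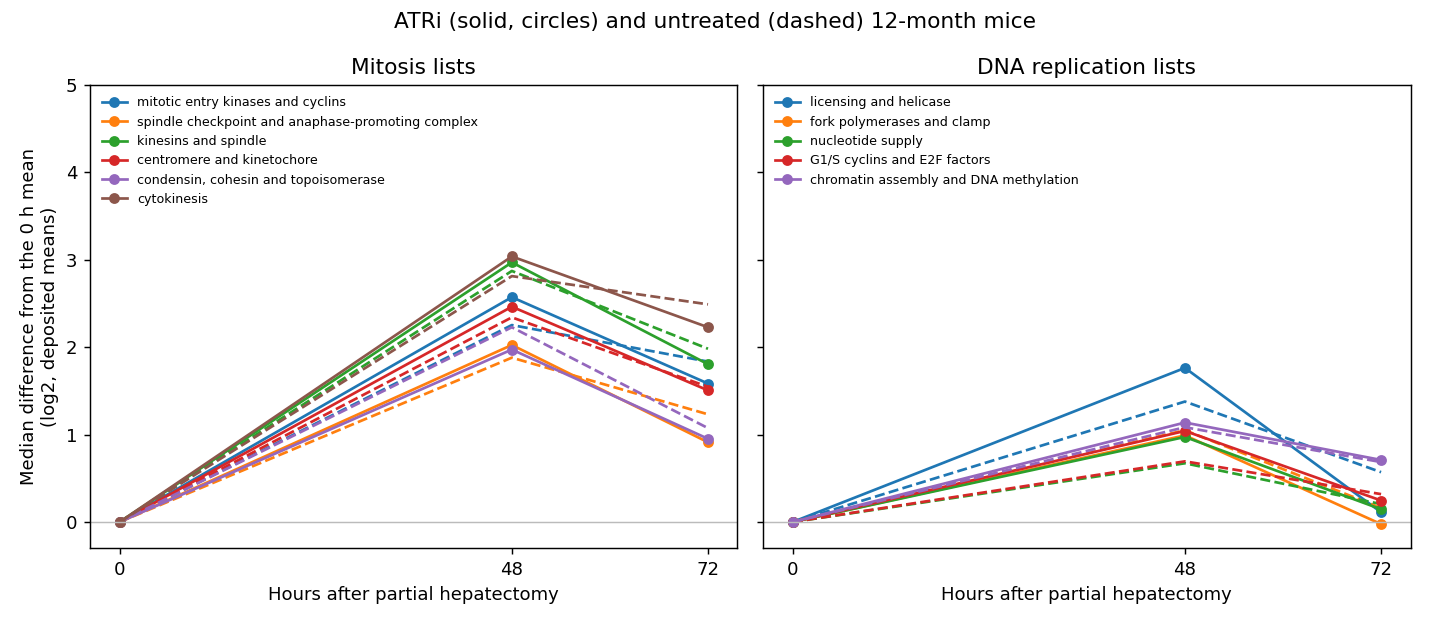
Median log2 difference from the 0 h mean (y axis) for 6 mitosis lists and 5 replication lists at 0, 48 and 72 h after PH (x axis), from deposited means of 12-month mice; solid lines with circles are mice given ATRi at 24 h and dashed lines are untreated mice. The mitosis lists remain between 0.91 and 2.49 at 72 h, and the licensing list in ATRi livers stands at 1.76 at 48 h and 0.11 at 72 h.

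Genes of ATR signalling showed no common direction: 3 of 18 rose and 4 fell, with a median of -0.04. Atr itself was at 2.19, 2.29, 2.23 and 1.93, against 2.47 at 0 h, a difference of -0.31 that did not pass the test (adjusted p = 0.128). Centred within length classes, the difference of this 94185 bp gene was -0.52 and passed as lower (adjusted p = 0.0275). A kinase inhibitor acts on the protein, so this is no check of the treatment. Chek1, the effector kinase, was at 2.0, 2.85, 2.67 and 2.38, against 1.71 at 0 h, and rose by 0.77 ± 0.20, adjusted p = 0.0208. Rad1, part of the 9-1-1 clamp that activates ATR, was at 1.69, 2.83, 1.55 and 2.07, against 4.04 at 0 h, and fell with a difference of -2.0 ± 0.27, adjusted p = 0.00231. Every liver was below 0 h for Rad1 and above it for Chek1. Rpa2, a subunit of the single-strand binding protein, fell (-0.74). Chek1 no longer passed without M547 (0.70) or M548 (0.80), nor Rpa2 without M545, M547 or M548 (-0.61 without M548). Of homologous recombination and Fanconi genes, 8 of 21 rose and 2 fell (median 0.28), with Fance among those that fell (-1.51).

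Of 27 measured p53 target genes, 14 rose and 4 fell (median 0.53). Cdkn1a, the cyclin-dependent kinase inhibitor p21, was at 7.05, 8.50, 7.83 and 6.99, against 5.71 at 0 h, and rose by 1.88 ± 0.31, adjusted p = 0.00399. Phlda3, an inhibitor of AKT, was at 5.38, 6.54, 6.19 and 5.30, against 3.23 at 0 h, and rose by 2.62 ± 0.28, adjusted p = 0.00131. M546 was the highest liver for both genes, although it was the mildest over all genes. Trp53inp1 rose by 2.42. Gtse1, which rose by 3.38, is also a mitotic gene that binds microtubules. In the untreated 72 h mean the list's median was 0.46 above 0 h, and Cdkn1a was at 7.22.

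Inflammatory and acute-phase genes were higher in the ATRi livers. In the inflammation and chemokine list 12 of 18 rose, all by 1 or more, and 3 fell, with a median of 1.74. In the acute-phase list 19 of 26 rose and 0 fell (median 1.05), with 0.68 in the untreated 72 h mean. The median of the inflammation list was 1.86, 0.70, 2.02 and 1.76 in M545, M546, M547 and M548, and 0.15 in the untreated 72 h mean. M546 was the lowest of the 4 livers. The promoter of Tnfaip3 is shown because this gene had the largest difference of the list and is a textbook target of NF-kappa B; capitals mark a match to the kappa B letters GGG, 2 free bases, TT, 1 free base and CC on either strand (here the reverse complement), 250 bases before to 50 after the RefSeq start, GRCm38.p6, minus strand.
Tnfaip3 (chr10:19015361-19015660): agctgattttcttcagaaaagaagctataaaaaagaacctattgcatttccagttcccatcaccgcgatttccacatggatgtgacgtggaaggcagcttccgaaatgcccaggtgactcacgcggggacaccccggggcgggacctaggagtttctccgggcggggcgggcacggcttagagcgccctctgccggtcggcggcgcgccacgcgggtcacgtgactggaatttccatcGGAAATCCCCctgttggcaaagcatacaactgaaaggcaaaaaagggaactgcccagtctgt

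Of the 13 promoters found for this list, 6 (46.2%) held this kappa B motif on either strand, against 5.43% of 8236. Tnfaip3, which codes for A20, an enzyme that edits ubiquitin chains to restrain NF-kappa B, was at 7.13, 6.17, 8.07 and 7.80, against 2.94 at 0 h. It rose by 4.35 ± 0.36, adjusted p = 0.000759, and M546 was lowest. Tifa, an adaptor upstream of NF-kappa B, was at 9.68, 9.57, 10.24 and 10.68, against 7.03 at 0 h, and rose by 3.02 ± 0.23, adjusted p = 0.000656. The neutrophil chemokines split the livers: Cxcl1 was at 4.71, 2.26, 6.93 and 6.32, against 2.43 at 0 h, and rose by 2.62 ± 0.86, adjusted p = 0.043. Liver M546 lay just below the 0 h mean and the other 3 were above it by over 2. Cxcl2 had the same arrangement, with 4.40, 2.03, 6.70 and 6.10 against 2.22 at 0 h, and rose by 2.58. Neither passed when M545, M547 or M548 was left out (Cxcl1 then differed by 2.74, 2.0 and 2.20, and Cxcl2 by 2.72, 1.96 and 2.15). The B-cell chemokine Cxcl13 fell (-1.69), at 2.01, 1.99, 1.04 and 2.49, against 3.58 at 0 h.

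C-reactive protein (Crp), an acute-phase pattern receptor, was at 8.49, 8.60, 9.08 and 9.22, against 5.15 at 0 h, and rose by 3.69 ± 0.17, adjusted p = 0.000272. Stat3, the factor that relays interleukin-6 signals in hepatocytes, was at 6.72, 6.08, 6.97 and 7.20, against 4.0 at 0 h, and rose by 2.74 ± 0.22, adjusted p = 0.000741. The metal-binding Mt1 was at 11.63, 11.69, 11.78 and 12.01, against 9.28 at 0 h, and rose by 2.50. For these 3 genes the livers lay within 1.2 units of each other and clear of 0 h.

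Immune cell markers moved beside these groups. Of 13 Kupffer cell and macrophage markers 5 rose and 1 fell, and their summed linear level was 653.9 to 1185 over the livers, against 469.1 at 0 h and 942.9 in the untreated 72 h mean. Marco, a scavenger receptor, rose by 1.97 and Cd5l by 1.30. Of 10 neutrophil markers 6 rose and 0 fell, with sums of 164.8 to 275.0, against 129.0 at 0 h and 173.4 in the untreated 72 h mean, which lay within the range of the livers. Among them were Mmp9 (2.14), Cxcr2 (2.0), Ngp (1.73) and Csf3r (1.39). T and NK cell markers had 0 of 13 higher and 5 lower, with sums of 21.1 to 28.2, against 32.22 at 0 h and 28.47 in the untreated 72 h mean, and Cd4, Cd8a, Cd8b1, Gzma and Prf1 were below 1 in every liver. B and plasma cell markers had 0 of 7 higher and 3 lower, with sums of 13.7 to 19.67, against 20.78 at 0 h and 23.1 in the untreated 72 h mean. When differences were centred within length classes, 6 Kupffer cell and macrophage markers were higher and 3 lower. Over the 10409 genes with a length, 2427 were then higher and 2418 lower. Centred counts here and below are to be read against these. Neutrophil markers then had 7 higher and 0 lower. T and NK cell markers and B and plasma cell markers each then had 0 higher and 2 lower. The part of immune cells in the inflammatory differences was not tested.

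No marker of the following non-hepatocyte types rose past the test when differences were not centred by length. Of 17 sinusoidal endothelial markers 0 passed the test (sums of 155.4 to 301.0, against 239.2 at 0 h, with M545 lowest), and likewise 0 of 16 stellate cell and fibroblast markers (180.0 to 198.3, against 158.5). At an unadjusted p under 0.05 in limma, 1 marker of each list passed, against 6307 of all 11119 genes. Centred within length classes, 0 endothelial markers were higher and 3 lower, and 3 stellate cell and fibroblast markers were higher and 2 lower. Of 6 cholangiocyte markers 2 fell (182.6 to 588.1, against 250.8), of 7 erythroid markers 3 fell (192.4 to 461.9, against 587.2) and of 5 platelet markers 2 fell (11.37 to 12.85, against 14.65). After the same centring, cholangiocyte and platelet markers each had 0 higher and 1 lower, and erythroid markers had 1 higher and 0 lower. Of 11 hepatocyte markers 5 rose and 1 fell (63770 to 95280, against 63940).

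The interferon response divided the livers. Its medians were 0.09, 0.60, 1.58 and 0.17 in M545, M546, M547 and M548, with M547 highest and M546 next, and the untreated 72 h mean was at 1.11. Of its 38 genes 8 rose and 1 fell. Zbp1, a sensor of Z-form nucleic acids, was at 5.78, 6.04, 6.94 and 5.45, against 3.83 at 0 h, and rose by 2.23 ± 0.28, adjusted p = 0.00198. Stat2, which carries type I interferon signals, was at 6.83, 7.39, 6.71 and 6.97, against 5.67 at 0 h, and rose by 1.30 ± 0.16, adjusted p = 0.00168. Gbp3, a guanylate-binding protein, was at 3.86, 4.72, 6.07 and 3.54, against 3.39 at 0 h, a difference of 1.16 that missed the threshold (adjusted p = 0.0856). An interferon-response motif (GAAA, 2 free bases and GAAA, on either strand) was in 18 of 31 promoters of the list (58.1%), against 3.27% of 8236. Of 11 antigen presentation genes 1 rose and 3 fell, including the class II gene H2-Eb1 (-1.15), which has close copies in the genome and no longer passed without M545 (-0.84) or M548 (-1.04). Without M547 the difference of Gbp3 was 0.65.

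**Figure D4:**
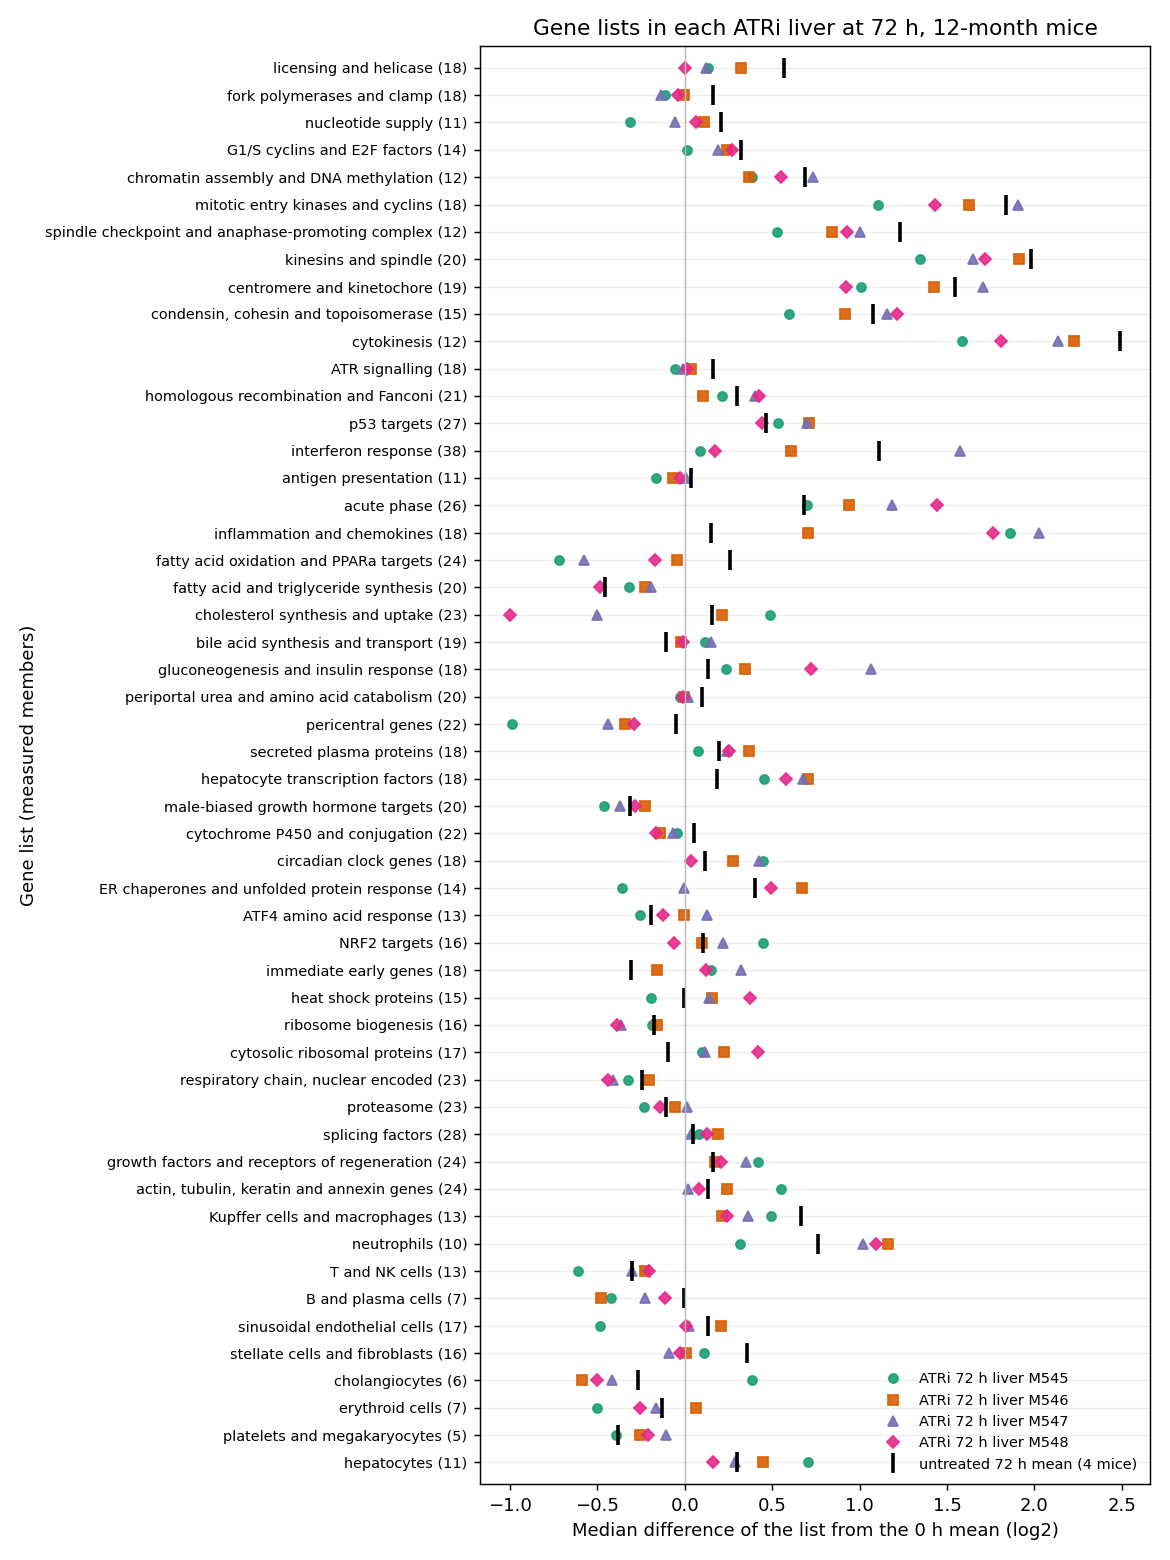
Median log2 difference from the 0 h mean (x axis) of the measured members of 52 lists (rows, with the number measured). Coloured symbols are the 4 ATRi livers at 72 h and the black bar is the untreated 72 h mean; mitosis lists lie to the right in every liver, the inflammation list is at 0.70 to 2.02 in ATRi livers with the bar at 0.15, and interferon and cholesterol lists spread over almost 1.5 units.

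Genes of glucose and insulin control moved in both directions. Of 18, 9 rose and 5 fell (median 0.69). Irs2, the insulin receptor substrate that couples the receptor to PI3 kinase in liver, was at 6.13, 6.04, 7.54 and 8.02, against 3.10 at 0 h, and rose by 3.83 ± 0.42, adjusted p = 0.00144. Foxo1, the fasting-state transcription factor, was at 4.93, 3.61, 4.28 and 4.45, against 0.97 at 0 h, and rose by 3.35 ± 0.27, adjusted p = 0.000686. Tat, tyrosine aminotransferase, was at 9.57, 8.76, 9.71 and 10.25, against 5.66 at 0 h, and rose by 3.91 ± 0.27, adjusted p = 0.000581. For each of these 3 genes no liver came within 2 units of 0 h. Pck1, the entry enzyme of gluconeogenesis, was at 3.11, 2.40, 2.91 and 3.89, against 4.34 at 0 h, and fell, as G6pc did (-1.26 and -2.84).

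Lipid genes moved in both directions. Of 24 fatty acid oxidation and PPAR-alpha target genes 2 rose and 8 fell (median -0.42), and of 20 fatty acid and triglyceride synthesis genes 6 rose and 8 fell (median -0.37). Acaa1b, a peroxisomal thiolase, was at 4.99, 6.88, 6.56 and 6.68, against 8.28 at 0 h, and fell (-2.01 ± 0.37, adjusted p = 0.00567). Cpt1a, which admits fatty acids to mitochondria, went the other way: it was at 5.99, 5.63, 5.91 and 6.45, against 4.39 at 0 h, and rose by 1.61 ± 0.18, adjusted p = 0.00144. Elovl6, a fatty acid elongase, was at 3.81, 3.20, 5.30 and 5.55, against 1.43 at 0 h, and rose by 3.03 ± 0.49, adjusted p = 0.00373. Cyp4a32 (-2.21) and Cyp4a12a (-1.77) fell, with close paralogs that make their values uncertain.

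Cholesterol genes divided the livers. Of 23, 1 rose and 3 fell, and the median was 0.49, 0.21, -0.50 and -1.0 in M545, M546, M547 and M548. Sc5d, a late enzyme of cholesterol synthesis, was at 6.14, 6.51, 5.84 and 4.86, against 7.59 at 0 h, and fell (-1.75 ± 0.31, adjusted p = 0.00493). Mvd, of the mevalonate branch, was at 5.93, 5.29, 3.97 and 3.55, against 5.60 at 0 h, and did not pass (-0.92 ± 0.47, adjusted p = 0.148). For Mvd, M545 lay above 0 h and M548 lowest, and it passed without M545 (-1.33). Of 19 bile acid synthesis and transport genes 3 rose and 5 fell (median 0.28), including the uptake carrier Slc10a1 (-1.08). This median is that of the fitted differences and was not stable: it was -0.01 without M545 and 0.067 when centred within length classes, and the medians of the single livers were 0.11, -0.02, 0.15 and -0.01.

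Zonal and secretory hepatocyte genes were divided. Of 22 pericentral genes 4 rose and 8 fell (median -0.75), and of 20 periportal genes 5 rose and 8 fell (median 0.10). Axin2, a target of Wnt signalling near the central vein, was at 1.70, 2.69, 1.26 and 1.34, against 3.04 at 0 h, and fell (-1.29 ± 0.30, adjusted p = 0.0125). Tbx3, another pericentral factor, fell as well (-1.45). Liver M546 was nearest to 0 h for both, and Tbx3 no longer passed without M545 (-1.42) or M548 (-1.45). Ass1, of the urea cycle, was at 7.36, 5.67, 5.92 and 6.29, against 4.36 at 0 h, and rose by 1.96 ± 0.32, adjusted p = 0.00407. Of 20 male-biased growth hormone targets 2 rose and 7 fell (median -0.38). Of 22 cytochrome P450 and conjugation genes 4 rose and 8 fell (median -0.13), while Por, the reductase that serves the microsomal P450s, rose by 2.77. Of 18 secreted plasma protein genes 5 rose and 2 fell, with Apob (1.03) and Ahsg (1.51) higher and Ttr (-0.87) and Rbp4 (-0.73) lower. Ttr no longer passed without M547 (-0.92) or M548 (-0.85).

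Of 18 hepatocyte transcription factors 9 rose and 4 fell (median 0.62). Nr5a2, a nuclear receptor of bile acid and acute-phase control, was at 4.30, 2.68, 4.32 and 5.37, against 1.29 at 0 h, and rose by 2.88 ± 0.48, adjusted p = 0.00411. Rxra, the common partner of liver nuclear receptors, was at 6.82, 5.93, 6.22 and 6.96, against 4.05 at 0 h, and rose by 2.43 ± 0.23, adjusted p = 0.000986. Onecut2 rose by 2.01, and Foxa1 was the strongest fall of the list. Among 24 growth factors and receptors of regeneration 8 rose and 5 fell. Beside Egfr, its ligand Tgfa was at 4.18, 2.40, 2.51 and 3.56, against 1.0 at 0 h, and rose by 2.16. Igf1, the growth hormone-driven growth factor, rose by 2.54, and its carrier Igfbp3 fell (-2.02).

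Stress and housekeeping lists showed smaller medians. Of 16 NRF2 targets 4 rose and 1 fell, with Hmox1, heme oxygenase, at 8.05, 7.61, 7.44 and 7.67, against 5.82 at 0 h (a rise of 1.87), and Keap1, the NRF2 repressor, lower (-1.34). Of 18 immediate early genes 2 rose, Fosl2 (2.70) and Klf6 (1.80), and 3 fell, among them Egr1 (-1.33) and Nr4a1 (-1.04). Of 14 unfolded protein response genes 3 rose and 1 fell, and of 13 ATF4 targets 1 rose and 3 fell, with Trib3 at -2.35. Of 15 heat shock genes 6 rose and 3 fell, led by the co-chaperone Bag3 (2.0). Of 18 clock genes 6 rose and 3 fell. Nr1d1, the clock repressor REV-ERB-alpha, was at 6.69, 5.84, 5.57 and 3.68, against 7.11 at 0 h, and fell (-1.67 ± 0.53, adjusted p = 0.0385), with M548 well below the others. Its difference was -1.08 without M548, and it no longer passed without M546 (-1.80) or M547 (-1.71), nor did Nr4a1 without M546 (-1.04). The hours of day at which livers were taken are not in the labels.

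Nuclear-encoded respiratory chain genes leaned one way: 0 of 23 rose and 13 fell, with a median of -0.33, and 1 of the 13 fell by 1 or more, Ndufb8 (-1.48). The median gene of that list spans 10147 bp. When differences were centred within length classes, 3 of its 22 genes with a length were lower, against 2418 of all 10409. Of 16 ribosome biogenesis genes 0 rose and 5 fell, and after that centring 2 were higher and 2 lower. Of 17 cytosolic ribosomal protein genes 7 rose and 2 fell, of 23 proteasome genes 7 rose and 6 fell, and of 28 splicing factors 7 rose and 5 fell. The 17 ribosomal protein genes were those measured out of 40 listed. Among their largest rises, Rpl30, Rps20 and Rpl14 stood at 0.58, 0.83 and 0.55 at 0 h, near the lowest levels, and Rpl3 at 2.74. Rises from so low a level are uncertain. Of 24 actin, tubulin, keratin and annexin genes 4 rose and 4 fell, with the myosin Myh9 (2.40) and the tubulin Tubb6 (2.24) higher.

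The genes that differed most among the 4 livers were enzymes, transporters and chemokines, and M545 or M546 was usually at an end. Cyp7a1, which catalyses the first and limiting step from cholesterol to bile acids, was at 1.38, 6.46, 5.53 and 2.63 in M545, M546, M547 and M548, against 6.63 at 0 h. M546 was near 0 h while M545 and M548 were more than 4 below it, and the difference did not pass the test (-2.63 ± 0.99, adjusted p = 0.0641). Between the deposited means the difference of Cyp7a1 was -1.20. Sult1e1, the estrogen sulfotransferase, was at 6.44, 1.29, 5.14 and 2.41, against 0.98 at 0 h, and did not pass (2.84 ± 0.99, adjusted p = 0.051). For it M546 was again nearest to 0 h and M545 farthest. Both passed without M546 (-3.45 for Cyp7a1 and 3.68 for Sult1e1). Cyp4a14, a fatty acid hydroxylase induced by PPAR-alpha, was at 2.77, 5.57, 1.63 and 5.48, against 3.47 at 0 h (0.39 ± 0.82, adjusted p = 0.714). Livers M546 and M548 were above 0 h and M545 and M547 below it, and the sign changed without M546 (-0.18) or M548 (-0.15). Slc10a6 was at 1.57, 1.67, 5.34 and 4.44, against 0.84 at 0 h, and rose (2.42 ± 0.80, adjusted p = 0.0437), with M547 and M548 far above the other livers, and no longer passed without M547 (1.72) or M548 (2.02).

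**Figure D5:**
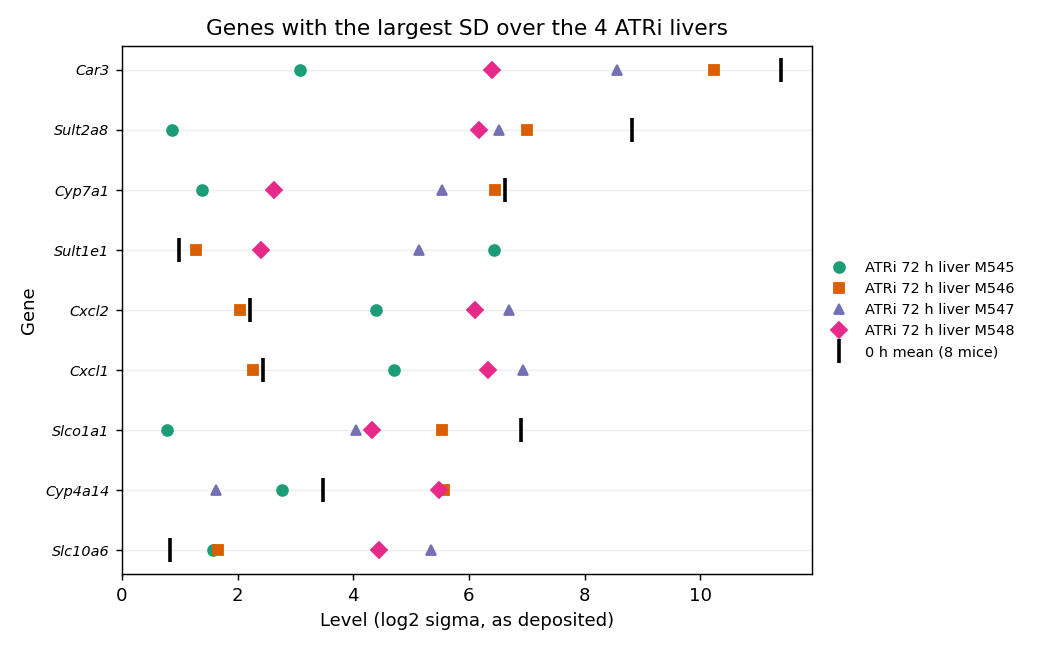
Levels (x axis, log2 sigma as deposited) of 9 of the 10 genes with the largest SD over the 4 ATRi livers at 72 h, ordered from the largest SD at the top. Symbols are single livers and the black bar is the 0 h mean of 8 mice; for Car3, Sult2a8, Cyp7a1 and Slco1a1 liver M545 is lowest and M546 is highest, and for Cxcl1 and Cxcl2 M546 is lowest and M547 highest.

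Whether the 72 h state with the inhibitor differed from that without it was tested in a second limma fit of the same 4 livers against the untreated 72 h mean (weight 4). In ATRi livers 689 genes (6.2% of 11119) were higher and 352 (3.17%) were lower. The number of calls depended on which liver was left out. Without M545, M547 or M548 there were 0, 0 and 0 higher and 0, 0 and 1 lower. Without M546 there were 2300 higher and 1028 lower, and the cause was not tested. At an unadjusted p under 0.05, 4151 genes differed with all 4 livers and 3489, 3002 and 3070 without M545, M547 or M548. Centring the differences on their median gave 209 higher and 205 lower. Among the genes with the largest differences past the test, Tnfaip3 was at 7.13, 6.17, 8.07 and 7.80 in M545, M546, M547 and M548, against 4.18 in the untreated mean (3.11 ± 0.41, adjusted p = 0.0444). Btg3, an antiproliferative protein, was at 6.04, 4.71, 6.62 and 6.41, against 2.93 (3.02 ± 0.43, adjusted p = 0.0444). Irs2 was higher by 2.92, Mapkapk2 by 2.83 and Plscr1, a phospholipid scramblase, by 2.76. Every ATRi liver lay above the untreated mean for these 5 genes.

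On the lower side, Cxcl13 was at 2.01, 1.99, 1.04 and 2.49, against 4.85 in the untreated mean (-2.97 ± 0.33, adjusted p = 0.0444). Cyp2a5, a coumarin-hydroxylating P450 with a close paralog, was at 1.49, 2.05, 1.25 and 0.55, against 4.01 (-2.68 ± 0.32, adjusted p = 0.0444). Lad1 differed by -2.10, Lgals4, a galectin, by -2.07 and Apol9b by -1.77. All 4 ATRi livers lay below the untreated mean for these 5 genes. Of the 96 measured entries in the 6 mitosis lists, 0 passed as higher and 4 as lower in ATRi livers than in the untreated mean; some genes are in more than 1 list. Ccnb2 differed by -0.23 ± 0.31, adjusted p = 0.606 and Mki67 by 0.19 ± 0.19, adjusted p = 0.507, and Cdk1 by -0.18 ± 0.26, adjusted p = 0.621; with this spread, a p above the threshold does not show that the levels were alike. At an unadjusted p under 0.05 in limma the mitosis lists had 3 higher and 21 lower entries. Over all 11119 genes 4151 passed at that level, higher and lower together. Of the 73 entries in the 5 replication lists, 0 passed as higher and 13 as lower (3 and 30 at an unadjusted p under 0.05), including Rfc3 (-1.18), Pola2 (-0.95) and Pcna (-0.79). In the inflammation list 4 were higher and 2 lower, and in the list of glucose and insulin control 5 were higher and 0 lower, with Foxo1 (1.68) and Tat (1.89) among them. Egfr was higher by 1.75.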

How the data were processed

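RNA-seq of mouse liver was deposited by the authors as tables of log2 levels ("log2 sigma", per the file headers), 1 for each ATRi liver and 1 for each group mean. Reads were handled on GRCm38 (mm10), per the submitters' processing notes; the aligner, counting, strand use and scaling are not given in the sources used here, and the depth is unknown. Each table held 11119 genes, of which 507 are joined overlapping entries. No filter or pseudocount was applied.

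The 4 livers (weight 1 each) were compared with the 0 h mean (weight 8) in limma 3.58.1 (R 4.3.3) with trended, robust variances, a two-sided moderated test and Benjamini-Hochberg adjustment over all genes, with a threshold of 0.05. A second fit used the untreated 72 h mean (weight 4). In data simulated for the 0 h comparison (11119 genes, 200 of them changed), 54% of changes of size 1 and 87% of size 2 were recovered, with 4.38% false calls. For the untreated comparison the values were 43.3%, 83.5% and 3.64%. The simulated means were drawn independently of the livers, on the same scale and with the spread that their weight implies. The simulation therefore cannot show how many calls are false in the real data, where these assumptions may not hold. A weight of 8 assumes that single 0 h mice vary like the ATRi livers, and their own spread was not analysed here. The p-values measure the spread between 4 mice.

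Genes named are the 15 largest and 15 smallest differences past the test with all 4 livers on 1 side (passing over predicted, clone and joined names), up to 4 members per list by size, the 10 with the largest SD, the 5 highest and 5 lowest past the test against untreated 72 h, and Atr, Chek1, Mki67, Top2a, Cdk1, Ccnb1, Ccnd1, Cdkn1a, Mcm2, Pcna, Rrm2 and Alb. Some genes that meet this rule are not reported here: 14 of the 15 largest differences and 9 of the 10 largest SDs are shown. The members and the 52 lists were chosen with earlier results of these data known. Gene lengths and coordinates came from GENCODE (GRCm38), matched by symbol for 10409 genes (93.6%), and promoters from RefSeq (GRCm38.p6).

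Alternatives were centring, quantile normalization, shifting livers to their deposited mean, a pseudocount of 1 on the linear scale, a mean level of 2 or more, weight 1 for the mean, no trend or robust step, leaving out each liver and, added after seeing the data, leaving out joined entries and centring within 7 length classes.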

Additional observations from a re-analysis of the deposited data

Results flagged for a closer look

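Single livers stood apart from the other 3 by Dixon's criterion for 14 of 235 named genes and for 0 of 52 list medians, and chance alone flags about 1 group in 20. Liver M545 was low for Sult2a8 (level 0.865), Mcm10 (2.138), Mad2l1 (4.308), Birc5 (4.69), Top2a (3.465) and Cyp1a2 (6.071). Liver M546 was low for Gfra1 (5.273) and Ccdc152 (4.084) and high for Ngp (6.802), Slc4a1 (2.729) and Apol9b (3.327). It was also low for Jchain (0.272), which is the lowest value in that liver's table. Liver M548 was high for Ezh2 (2.477) and low for Nek2 (5.331).

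The 72 h livers with the inhibitor differed from the untreated 72 h mean, by the limma fit of that difference, for the 10 genes named by size. ATRi livers were higher for Tnfaip3 (3.11), Btg3 (3.02), Irs2 (2.92), Mapkapk2 (2.83) and Plscr1 (2.76), with 4 of 4 livers above. They were lower for Cxcl13 (-2.97), Cyp2a5 (-2.68), Lad1 (-2.10), Lgals4 (-2.07) and Apol9b (-1.77), with 4 of 4 below. The adjusted p-values of these genes lay between 0.0444 and 0.0487.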

How the results depend on the processing

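Over 235 named genes and all settings, 2693 of 3012 comparisons kept their side of the threshold, 277 no longer passed and 42 newly passed. Of those that passed in either fit, 0 changed sign. Differences that passed in neither fit could change sign, as for Cyp4a14, and are counted among the 2693. Of the 277, 141 came from weight 1 for the 0 h mean, which left 196 genes higher and 172 lower (191 and 151 by 1 or more). A mean level of 2 or more left 1875 lower, with fewer genes tested. Centring within length classes left 540 lower by 1 or more and kept 66.8% of the calls of that size. Leaving out 1 liver gave 1857 to 2851 genes higher, 1898 to 2945 lower, 1079 to 1289 higher by 1 or more and 765 to 992 lower by 1 or more. Against untreated 72 h, leaving out 1 liver gave 0 to 2300 higher and 0 to 1028 lower (3489, 5021, 3002 and 3070 genes at an unadjusted p under 0.05 without M545, M546, M547 and M548), centring gave 209 and 205, and shifting the livers to their deposited mean gave 1075 higher; the cause was not tested. Sign changes were listed only for list medians larger than the SD of the 4 livers' medians. ATR signalling changed sign (0.087 with shifted livers, 0.101 centred by length). Bile acid genes ran from -0.01 to 0.311 with 1 liver left out, the lowest without M545. Cytochrome P450 genes (0.048) and proteasome genes (0.086) changed sign when centred by length. Cytosolic ribosomal protein genes were at -0.042 at a mean level of 2 or more. Smaller medians changed sign too, such as cholesterol genes (0.041 with shifted livers) and antigen presentation genes (0.22 centred by length). The deposited ATRi mean exceeded the mean of the 4 livers by a median of 0.088. No paired analysis was possible because the 0 h levels of single mice enter only through a mean.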
